A study of Homo sapiens with 9 samples.

Results

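ZNF143-RAD21 sites are binding sites of the zinc finger protein ZNF143 that also carried RAD21, a cohesin subunit, but not CTCF, in wild-type HEC-1-B cells. They were selected on measured values: a wild-type ZNF143 peak on chromosomes 1 to 22 or X that overlapped a wild-type RAD21 peak by at least 1 bp and no wild-type CTCF peak. Of 36770 ZNF143 peaks, 715 (1.94%) met this rule. The other ZNF143 peaks were 26102 triple sites with both RAD21 and CTCF (71.0%), 9168 ZNF143-only sites with neither (24.9%) and 785 with CTCF and no RAD21 (2.13%).

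The study mapped ZNF143, CTCF and RAD21 by ChIP-nexus, an immunoprecipitation of crosslinked chromatin in which exonucleases digest the recovered DNA up to the crosslinked protein. All cells were HEC-1-B, an established human uterine adenocarcinoma line, or lines derived from it. Wild-type cells gave a library for each of ZNF143, CTCF and RAD21, and ZNF143KO cells, in which ZNF143 was knocked out, gave CTCF and RAD21 libraries. CTCF-AID cells carry CTCF fused to an auxin-inducible degron, and gave ZNF143 and CTCF libraries at 0 h and at 24 h of the auxin IAA. The knockout and the degradation were taken from the labels, since a ZNF143 library of the knockout and a measurement of CTCF protein were not analysed here. Peak names inside the files start with ZO in the 2 knockout lists, and with ZNF143KD and CTCFKD in the ZNF143 and CTCF lists at 24 h; the labels explain none of these, and groups follow the labels. The labels do not say whether ZNF143KO or CTCF-AID cells were 1 clone or several. Each of the 9 groups held 1 library, so no difference has a replicate check, and no test between conditions was possible.

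ZNF143 is a sequence-specific transcription factor known for binding the promoters of protein-coding and small nuclear RNA genes. CTCF is a zinc finger protein that binds a long directional motif and halts cohesin, the ring-shaped complex that extrudes chromatin into loops. RAD21 is the subunit that closes the cohesin ring. Most cohesin peaks in mammalian cells lie at CTCF sites, so cohesin at a bound factor without CTCF is the less usual arrangement.

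Library depth differed between the lists, and this touches every comparison of them. The background read density solved from the deposited values was 7.81 reads per kb for wild-type RAD21 and 26.1 for knockout RAD21, a ratio of 3.34. For CTCF it was 8.63 in wild type, 18.9 in the knockout, 12.8 at 0 h and 3.88 at 24 h. For ZNF143 it was 5.96 in wild type, 13.5 at 0 h and 12.1 at 24 h. Peaks in the 2 knockout lists started at a −log10 q of 5.00, and the other lists reached down to 3.02 or lower. A peak missing from a shallow list, or found in a deeper one, cannot be told apart from a change at the site. Intervals below are 95% intervals over peaks and cover counting error only.

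At ZNF143-RAD21 sites the ZNF143 peak ranged from weak to very strong, and the RAD21 peak was mostly weak. The ZNF143 peak was above its list's median signal of 10.2 at 451 of the 715 sites, and the others were weaker. Signal here is the authors' fold enrichment at the summit, compared only within a list. Where signals of a site in several lists are given below, they show that a peak was called and do not measure a change. The median ZNF143 signal was 14.4 at ZNF143-RAD21 sites (quartiles 8.36 and 22), against 10.3 at triple sites and 9.82 at ZNF143-only sites. The lowest value was 2.57 and the highest 35.7. Of the 715 sites, 248 (34.7%) were among the strongest 10% of ZNF143 peaks, against 3.90% of triple sites and 25.5% of ZNF143-only sites. These values come from the lists that defined the sites and are a description.

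The 715 sites overlapped 720 RAD21 peaks, called partner peaks below, which made up 1.47% of the 48906 wild-type RAD21 peaks. Of the sites, 710 had 1 partner and 5 had 2. The median partner signal was 6.53 (quartiles 5.51 and 7.87), against 20.0 for RAD21 peaks at triple sites and 6.58 for the 7695 RAD21-only peaks, which overlapped neither ZNF143 nor CTCF. The partners were therefore close in signal to cohesin peaks at which no ZNF143 peak was called. Among the partners, 243 were in the weakest 10% of RAD21 peaks and 27 were above the list's median. The median partner rested on 8 reads at the summit and was 36 bp wide, whereas RAD21 peaks at triple sites had medians of 29 reads and 141 bp. The ZNF143 peaks at the same places had a median of 20 summit reads and a width of 86 bp.

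**Figure D1:**
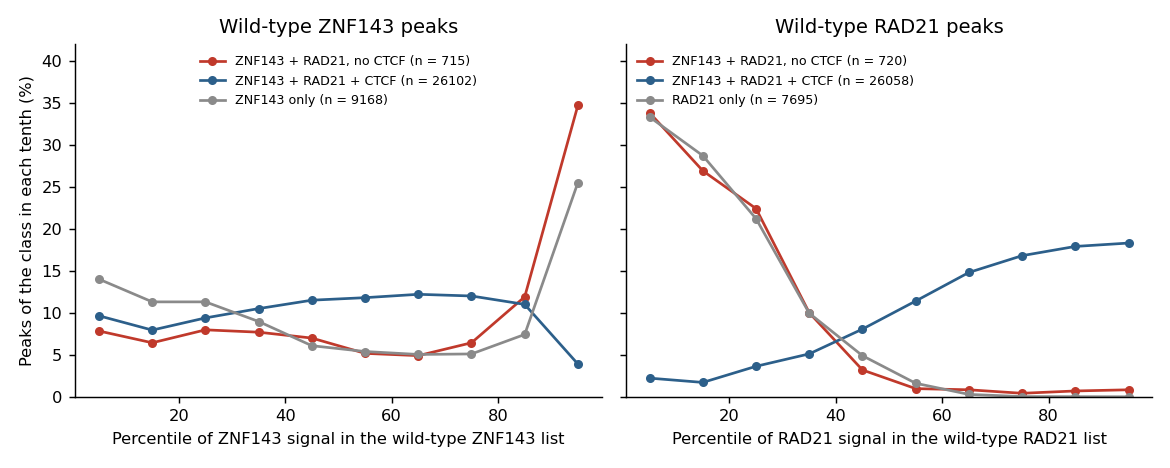
Share of peaks (%) in each 10% of signal rank, by class, in the wild-type ZNF143 list (left) and the wild-type RAD21 list (right). ZNF143-RAD21 sites (red) crowd the strongest 10% of the ZNF143 list, with 34.7% of 715 sites, and their RAD21 partners crowd the weak end of the RAD21 list together with the RAD21-only peaks (grey).

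The share of CTCF-free ZNF143 peaks that carried RAD21 was higher among strong ZNF143 peaks. In the weakest 10% of the ZNF143 list, 56 of 1339 CTCF-free peaks had a RAD21 peak (4.18%). In the strongest 10%, 248 of 2582 did (9.60%), and in the 10% just below it 85 of 765 (11.1%), so the rise was not steady. These shares too come from the lists that defined the sites and are a description. From weakest to strongest ZNF143 quartile group, the sites had median widths of 34, 60, 107 and 146 bp. The part of width in the overlap was not tested. Even at the strongest ZNF143 peaks, most CTCF-free peaks thus had no RAD21 peak. Within the ZNF143-RAD21 sites the strength of the 2 proteins did not run together: in the 4 groups cut at the quartiles of ZNF143 signal, from weakest to strongest, the median partner signal was 6.80, 6.69, 6.01 and 6.54.

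Summits of the 2 proteins were close, which the required overlap in part fixes, so the distances are a description. The distance from the ZNF143 summit to the nearest RAD21 summit had a median of 12 bp (quartiles 4 and 31) at ZNF143-RAD21 sites and 14 bp at triple sites. It was within 10 bp at 328 sites (45.9%) and within 50 bp at 608 (85.0%), against 39.8% and 97.4% of triple sites. The ZNF143-RAD21 sites therefore held more very close pairs and a longer tail, with 33 sites (4.62%) at 100 bp or more against 0.624% of triple sites.

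**Figure D2:**
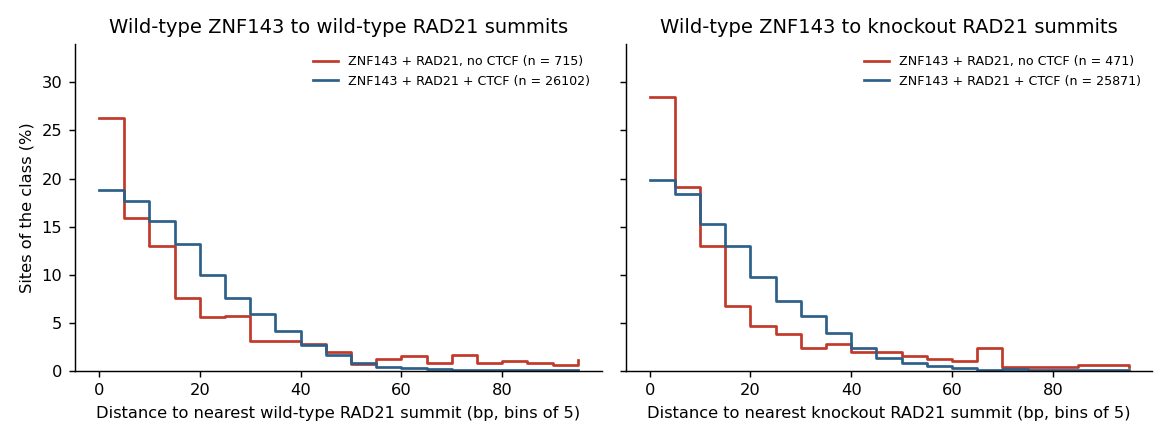
Distance (bp, in bins of 5 up to 100) from each wild-type ZNF143 summit to the nearest RAD21 summit, as a share of sites (%), in wild-type cells (left) and in the knockout (right). At ZNF143-RAD21 sites (red) the first bin holds 26.3% of sites in wild type and 28.5% in the knockout, against 18.8% and 19.9% of triple sites (blue).

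The nearest wild-type CTCF peak lay a median of 10338 bp away. It was under 100 bp away at 57 sites, 100 to under 1000 bp at 86, 1000 to under 10000 bp at 208 and 10000 bp or more at 364. At 35 sites the RAD21 partner itself also overlapped a CTCF peak that the ZNF143 peak did not reach. The 57 sites next to CTCF had the weaker ZNF143 peaks and the stronger partners, with median signals of 7.87 and 10.3, against 16.1 and 6.34 at the 364 distant sites. By chromosome, the sites made up between 1.06% (chromosome 13) and 2.93% (chromosome 17) of ZNF143 peaks.

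The rule's edges held few sites. Inside them, 12 sites overlapped RAD21 by at most 5 bp (median ZNF143 signal 8.77) and 7 had a CTCF peak within 5 bp (9.38). Just outside, 8 CTCF-free ZNF143 peaks had a RAD21 peak within 5 bp that did not overlap (17.4), and 10 with RAD21 overlapped CTCF by at most 5 bp (11.8).

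The 4 strongest sites had wider ZNF143 peaks than most of the class. Positions are 1-based on hg19. The strongest, chr18:34850132-34850280, had a ZNF143 signal of 35.7 and a RAD21 signal of 8.59 with its summit 9 bp from that of ZNF143. At chr2:224822062-224822214 the ZNF143 signal was 35.5, the RAD21 signal 6.65 and the summits coincided (0 bp). At chr9:116102556-116102701 they were 35.1 and 11.8, with summits 1 bp apart.
The fourth, chr9:128845086-128845240, had 34.6 for ZNF143, 5.15 for RAD21 and summits 25 bp apart. All 4 were 146 to 155 bp wide, above the upper quartile of 129 bp, lay 3703 bp or more from a wild-type CTCF peak, and had no CTCF peak in any other CTCF list.
In the knockout their RAD21 signals were 10.2, 12.1, 9.86 and 10.2, in the same order. Their ZNF143 signals were 30.4, 32.9, 29.6 and 29.8 at 0 h of auxin and 28.7, 32.1, 23.7 and 29.0 at 24 h. RAD21 was thus found at all 4 without ZNF143 by label, and ZNF143 at all 4 after CTCF degradation by label.

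The 3 sites with the strongest partners looked different. At chr5:141990911-141990943, 33 bp wide, the ZNF143 signal was 8.03 and the RAD21 signal 26.2, with summits 88 bp apart and a wild-type CTCF peak 1 bp away. At chr19:2648767-2648815 the values were 7.87 and 25.9, with summits 121 bp apart and CTCF 43 bp away. At chr1:41898423-41898466 they were 5.83 and 25.6, with summits 114 bp apart and CTCF 24 bp away. Each is a weak ZNF143 peak at the edge of a strong cohesin peak beside a CTCF site.

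RAD21 was found again at most of the sites when ZNF143 was knocked out, but less often than at triple sites. A knockout RAD21 peak overlapped 471 of the 715 sites (65.9%, exact Clopper-Pearson interval 62.3% to 69.3%), where the figure for all wild-type ZNF143 peaks was 74.5%. The share was 99.1% at triple sites and 6.64% at ZNF143-only sites, a difference of -33.2 points from triple sites (Newcombe interval -36.8 to -29.9) and 59.2 points from ZNF143-only sites (55.6 to 62.6). Where RAD21 was found in the knockout, its summit lay a median of 10 bp from the wild-type ZNF143 summit, and at these same 471 sites the wild-type RAD21 summit lay a median of 13 bp away. These sites were counted because the peaks overlap, so short distances are in part given by the count. The knockout RAD21 peaks at the sites were still weak, with a median signal of 9.07 against 14.0 in their whole list.

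**Figure D3:**
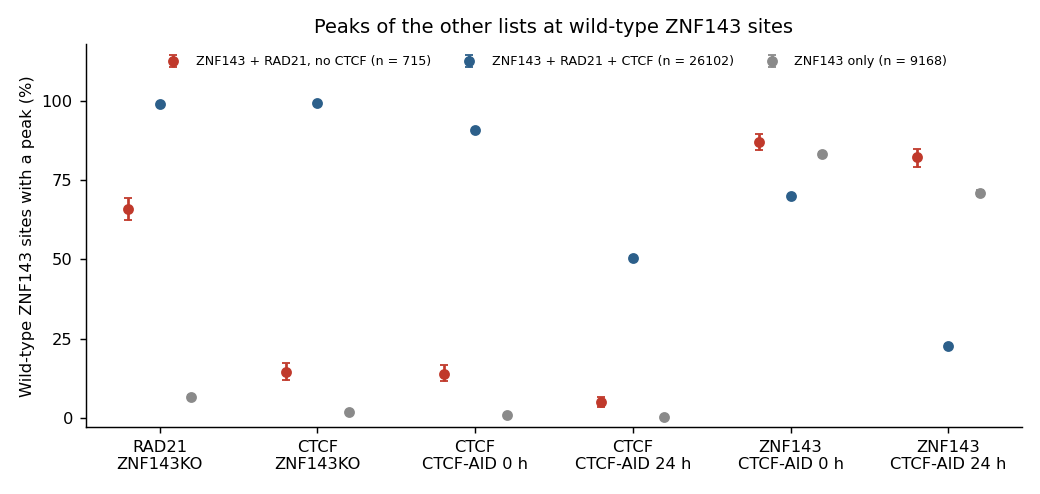
Share of wild-type ZNF143 sites (%, with exact 95% binomial intervals) that overlapped a peak in each of the 6 lists not used to define them, by class. ZNF143-RAD21 sites (red) lie between the other classes for RAD21 and CTCF, and highest for ZNF143, with 87.1% at 0 h and 82.2% at 24 h.

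Counted over RAD21 peaks, 471 of the 720 partners were kept in the knockout (65.4%, interval 61.8% to 68.9%), whereas 92.3% of all wild-type RAD21 peaks were kept. RAD21-only peaks, which had no ZNF143 peak to lose, were kept at 66.5%. The difference between partners and RAD21-only peaks was -1.08 points (-4.78 to 2.47), an interval that includes 0 and covers only counting error over these peaks. When the knockout list was cut to its 48906 strongest peaks, the length of the wild-type list, 47.2% of partners were kept and the difference became -6.29 points (-10.1 to -2.47). With peaks of −log10 q of at least 5 in all lists, which filters the wild-type lists and leaves the knockout lists as they are, it was -5.57 points (-9.76 to -1.62). The comparison with RAD21-only peaks thus depended on which peaks of either list were used.

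Retention followed the strength of the partner. In the 4 groups cut at the quartiles of partner signal, the share of partners kept was 50.3%, 55.6%, 69.3% and 86.7%. RAD21-only peaks in the same ranges of signal were kept at 46.8%, 56.3%, 72.3% and 90.3%, and in all 4 groups the interval of the difference included 0. RAD21 peaks of triple sites were kept at 64.4%, 90.0%, 95.8% and 99.9% in the same ranges. The partners fell below these by -14.1, -34.4, -26.6 and -13.2 points (members minus triple), with no interval that included 0. The strongest group has no upper limit and holds 24533 of the 26058 RAD21 peaks at triple sites, so signal is not matched there; in the 3 groups below it the partners were found less often over the same ranges of signal.

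**Figure D4:**
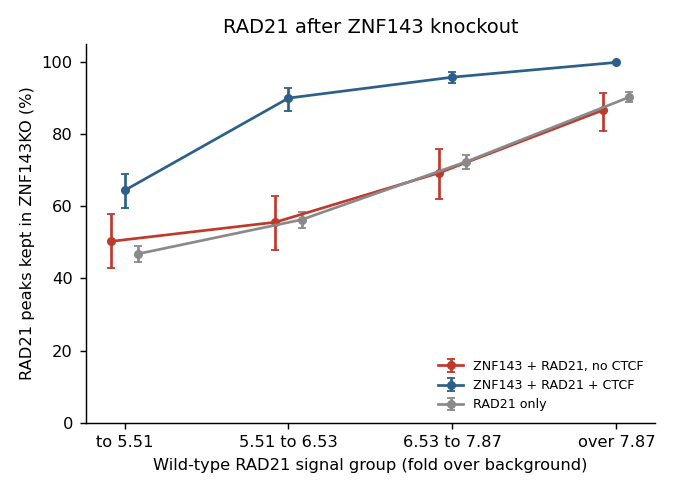
Share of wild-type RAD21 peaks kept in the ZNF143 knockout (%, with exact 95% binomial intervals) in 4 groups of wild-type RAD21 signal, cut at the quartiles of the partner peaks. Partners (red) rise from 50.3% to 86.7% beside RAD21-only peaks (grey), and RAD21 peaks at triple sites (blue) lie above both in every group.

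ZNF143 strength also went with retention of RAD21. By group of ZNF143 signal, from weakest to strongest, a knockout RAD21 peak was found at 58.7%, 54.2%, 68.0% and 82.7% of ZNF143-RAD21 sites. The sites were then divided at both medians, 14.4 for ZNF143 and 6.53 for the strongest partner. Among sites with the weaker partners, those partners were kept at 77 of 167 sites with weaker ZNF143 (46.1%) and 114 of 192 with stronger ZNF143 (59.4%), a difference of 13.3 points (2.92 to 23.2).
Among sites with the stronger partners the values were 132 of 191 (69.1%) and 145 of 165 (87.9%), a difference of 18.8 points (10.3 to 26.8). Partner strength counted at either level of ZNF143, by 23.0 points (12.8 to 32.6) at weaker and 28.5 points (19.6 to 36.7) at stronger ZNF143 sites. At ZNF143-only sites a knockout RAD21 peak was found at 3.14%, 6.75%, 11.1% and 10.1% of sites in the same signal groups, the 2 stronger groups lying above the 2 weaker ones.

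The 244 sites without a knockout RAD21 peak had a median ZNF143 signal of 11.0 and a partner signal of 6.01, against 16.5 and 6.87 at the 471 sites with one. Their nearest knockout RAD21 peak lay a median of 9378 bp away. They included very strong ZNF143 sites. At chr1:55181430-55181571 the ZNF143 signal was 32.6 and the wild-type RAD21 signal 5.68, with summits 3 bp apart. At chr20:25990326-25990463 the signals were 32.5 and 5.42, and at chr19:7627848-7627946 they were 30.7 and 6.01. In all 3 the wild-type RAD21 peak was weak, and ZNF143 was found at 0 h and at 24 h with signals between 25.6 and 29.1.

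Requiring an overlap of 50% of both peaks in the knockout list gave 34.3% of sites and 43.3% of partners in place of 65.9% and 65.4%. The deeper RAD21 library of the knockout moves with every share in these paragraphs, and its part in them was not tested.

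CTCF was called at a minority of the sites in the other CTCF lists. In the knockout, 104 of the 715 sites overlapped a CTCF peak (14.5%, interval 12% to 17.3%), against 73.1% of all wild-type ZNF143 peaks. At 0 h of auxin 100 sites did (14.0%, 11.5% to 16.7%; 65.9% of all ZNF143 peaks). At 24 h, 35 did (4.90%, 3.43% to 6.74%; 36.1% of all). The shares were far below those of triple sites, at 99.3%, 90.9% and 50.4%, and above those of ZNF143-only sites, at 1.84%, 1.06% and 0.164%. The difference from ZNF143-only sites was 12.7 points in the knockout list (10.3 to 15.5), 12.9 points at 0 h (10.6 to 15.7) and 4.73 points at 24 h (3.37 to 6.57).

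The CTCF peaks at the sites were weak in the knockout and 0 h lists and nearer to the list's median at 24 h. Their median signal was 10.2 in the knockout list, where the whole list had 16.1, 8.24 against 15.9 at 0 h and 7.64 against 8.58 at 24 h. With each CTCF list cut to its 13865 strongest peaks, the length of the 24 h list, a CTCF peak was found at 0.280% of sites in the knockout and 1.54% at 0 h. So nearly all the CTCF found at the sites in these 2 lists was outside the strongest peaks. The wild-type CTCF library was shallower than both, and the part of its depth in the absence of CTCF there was not tested.

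Across the 3 lists, 554 sites (77.5%, 74.2% to 80.5%) had no CTCF peak in any, 98 had one in 1 list, 48 in 2 and 15 in all 3. Of all wild-type ZNF143 peaks, 26.2% had CTCF in none of the lists and 35.7% in all 3. The share with none was 0.253% at triple sites and 97.5% at ZNF143-only sites, so the ZNF143-RAD21 sites lay between the other classes. The 161 sites with CTCF in at least 1 list had weaker ZNF143 (median signal 8.19 against 16.6 at the 554 without) and stronger RAD21 partners (7.74 against 6.21). By group of ZNF143 signal, from weakest to strongest, the share with CTCF in at least 1 other list was 45.8%, 30.7%, 5.06% and 8.38%. Sites with a ZNF143 signal above the median were thus rarely called for CTCF anywhere, and the weaker sites held most of the 161.

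CTCF in the 0 h and knockout lists was called more often at sites nearer to a wild-type CTCF peak. At 0 h a CTCF peak overlapped 43.9% of the 57 sites under 100 bp from a wild-type CTCF peak, 33.7% of the 86 at 100 to under 1000 bp, 13.9% of the 208 at 1000 to under 10000 bp and 4.67% of the 364 farther away. The difference between the nearest and the farthest group was 39.2 points (26.8 to 52.2). In the knockout list the same groups had 35.1%, 23.3%, 15.4% and 8.79%. At 24 h they had 7.02%, 11.6%, 7.21% and 1.65%, with the nearest group below the next. In the knockout 32 of the 364 distant sites had a CTCF peak. The median CTCF peak was 169 bp wide at 0 h and 90 bp in wild type, with the knockout between them. Overlap was counted over whole peaks, so the CTCF summit need not lie at the site. It lay within 50 bp of the ZNF143 summit at 76.0% of overlapped sites at 0 h and 81.7% in the knockout. At triple sites these shares were 97.6% and 98.1%. The part of peak width in the trend with distance was not tested.

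The groups of sites with CTCF elsewhere differed in shape. The 554 sites without it had a median width of 98 bp, whereas those with CTCF in 1, 2 and 3 lists had medians of 39, 31 and 33 bp. The 15 sites with CTCF in all 3 lists had a median ZNF143 signal of 8.61. The strongest of them, chr7:58007990-58008023, was 34 bp wide with a ZNF143 signal of 12.3 and a RAD21 signal of 8.36. Its CTCF signals were 6.98 in the knockout, 8.34 at 0 h and 8.94 at 24 h.
At chr11:48896142-48896174 the ZNF143 and RAD21 signals were 11.4 and 10.8, and at chr10:38774501-38774533 they were 11.2 and 6.06. All 3 were 33 or 34 bp wide, and in every list their summits lay within 9 bp of the wild-type ZNF143 summit. The CTCF signals at the chromosome 11 and 10 sites ran from 6.12 to 11.8. The latter was at chr10:38774501-38774533 at 24 h, above the 24 h list's median of 8.58. The shortest peak of the wild-type ZNF143 list was 27 bp. Over all 35 sites with a 24 h CTCF peak, its summit lay a median of 2 bp from that of ZNF143 (quartiles 1 and 5). At triple sites this median was 13 bp. Without a control library, whether such narrow, coinciding peaks are binding was not tested.

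A CTCF peak in the knockout list alone was found at 52 sites (7.27%, median ZNF143 signal 7.97), a share near the 7.66% of all wild-type ZNF143 peaks, with 8.64% at triple sites and 1.40% at ZNF143-only sites. The strongest was chr17:40925358-40925495, with a ZNF143 signal of 30.5, a RAD21 signal of 13.8 in wild type and 11.6 in the knockout, and a knockout CTCF signal of 9.30 with its summit 30 bp away. At chr12:104350952-104351068 the knockout CTCF signal was 7.84, 4 bp from the ZNF143 summit, at a site with a ZNF143 signal of 29.6 and a wild-type CTCF peak 83 bp away. At chr17:17991110-17991263 it was 7.22, 7 bp away, with a ZNF143 signal of 29.1. All 3 knockout CTCF peaks were in the weaker part of their list, whose median was 16.1, and the knockout CTCF library had 2.19 times the background density of the wild-type one.

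CTCF at a site went with RAD21 in the knockout. A knockout RAD21 peak was found at 126 of the 161 sites with CTCF in another list (78.3%) and at 345 of the 554 without (62.3%), a difference of 16.0 points (7.96 to 23.0). The former also had the stronger partners, as given above. RAD21 in the knockout was therefore called at most sites that had no CTCF peak in any of the 4 CTCF lists.

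ZNF143 was found at the sites in CTCF-AID cells before auxin and nearly as often after 24 h. At 0 h 623 of the 715 sites had a ZNF143 peak (87.1%, 84.5% to 89.5%), against 73.1% of all wild-type ZNF143 peaks. At 24 h 588 did (82.2%, 79.2% to 85.0%), against 36.2% of all. At triple sites the share was 69.9% at 0 h and 22.8% at 24 h, and at ZNF143-only sites it was 83.2% and 71.0%. At 24 h the sites lay 59.5 points above triple sites (56.4 to 62.1) and 11.2 points above ZNF143-only sites (8.11 to 14.0).

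Of the 623 sites with a ZNF143 peak at 0 h, 578 also had one at 24 h (92.8%, 90.5% to 94.7%), where the figure for all wild-type ZNF143 peaks found at 0 h was 48.8%. For triple sites it was 32.4% and for ZNF143-only sites 83.6%. The ZNF143 peaks at the sites ranked high in both lists, with a median signal of 16.8 at 0 h against 10.3 in the whole list and 15.4 at 24 h against 8.88. Their summits were a median of 6 bp from the wild-type ZNF143 summit at 0 h and 7 bp at 24 h, over peaks that overlap by definition. The depth of the 2 ZNF143 libraries was close, at 13.5 and 12.1 background reads per kb.

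Within groups of ZNF143 signal, the sites were close to ZNF143-only sites and lay above triple sites, by least in the strongest group. By group of ZNF143 signal, from weakest to strongest, a 24 h ZNF143 peak was found at 45.8%, 84.4%, 98.9% and 100% of ZNF143-RAD21 sites. At ZNF143-only sites in the same ranges it was found at 40.2%, 80.4%, 99.0% and 100%, and the interval of the difference included 0 in all 4 groups. Where both shares were 98.9% or more, little room was left for a difference. At triple sites the values were 7.28%, 19.1%, 54.5% and 93.5%, with differences of 38.5, 65.2, 44.4 and 6.54 points whose intervals did not include 0. Counted only over sites found at 0 h, the weakest ZNF143-RAD21 group kept 71.0% against 59.1% of ZNF143-only sites, a difference of 11.9 points (2.52 to 19.9), and the next group 92.5% against 86.1%, a difference of 6.33 points (0.961 to 9.86).

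**Figure D5:**
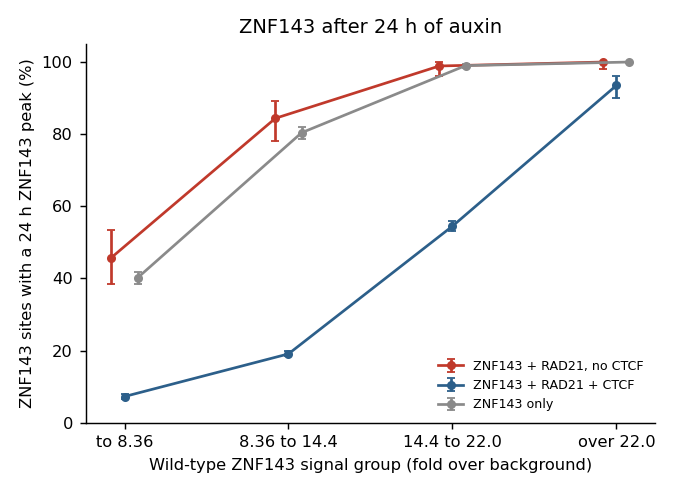
Share of wild-type ZNF143 sites with a ZNF143 peak after 24 h of auxin in CTCF-AID cells (%, with exact 95% binomial intervals) in 4 groups of wild-type ZNF143 signal, cut at the quartiles of the ZNF143-RAD21 sites. ZNF143-RAD21 sites (red) run from 45.8% to 100% beside ZNF143-only sites (grey), and triple sites (blue) lie lower in every group.

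Among the ZNF143-RAD21 sites themselves, ZNF143 at 24 h was less frequent where CTCF was called. It was found at 92 of the 161 sites with CTCF in another list (57.1%) and at 496 of the 554 without (89.5%), a difference of -32.4 points (-40.4 to -24.5). The same 161 sites also had less ZNF143 at 0 h (65.2% against 93.5%), and their median wild-type ZNF143 signal was 8.19 against 16.6. The part of signal in this difference was not tested. At sites under 100 bp from a wild-type CTCF peak, 59.6% had a 24 h ZNF143 peak, against 88.7% at sites 10000 bp or more away.

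A ZNF143 peak at 0 h and none at 24 h was found at 45 sites (6.29%, median ZNF143 signal 7.46), against 37.4% of all wild-type ZNF143 peaks, 47.3% of triple sites and 13.6% of ZNF143-only sites. At 10 sites (1.40%) there was a peak at 24 h only, against 0.536% of all wild-type ZNF143 peaks, 0.134% of triple sites and 1.47% of ZNF143-only sites. The strongest of the 45 was chrX:128249196-128249332, with a wild-type signal of 22, a 0 h signal of 11.3 and no 24 h peak. This site had RAD21 and CTCF peaks in the knockout, with signals of 14.0 and 17.7. At chr5:81047226-81047348 the ZNF143 signals were 15.7 in wild type and 10.5 at 0 h, with RAD21 at 16.8 in wild type and 13.3 in the knockout. At chr3:15140603-15140744 they were 11.3 and 7.36. All 3 sites had a RAD21 peak in the knockout, and none had a CTCF peak in the CTCF-AID lists.

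Counted jointly over the 6 lists that did not define them, 322 of the 715 sites (45.0%, 41.3% to 48.8%) had RAD21 in the knockout, ZNF143 at both times and no CTCF in any list. This held for 2.27% of all wild-type ZNF143 peaks, 0.0805% of triple sites and 5.28% of ZNF143-only sites. The median ZNF143 signal of the 322 sites was 19.4. A further 171 sites (23.9%, median 14.5) differed only in having no knockout RAD21 peak, a pattern of 16.2% of all peaks and 62.4% of ZNF143-only sites. ZNF143 was found at neither time at 82 sites (11.5%, median 6.83), against 26.3% of all peaks. No peak of any protein in any of the 6 lists was found at 22 sites (3.08%, median 6.85), near the 3.84% of all peaks and below the 14.9% of ZNF143-only sites. The class defined by 3 wild-type lists was thus mixed. Sites in the 2 stronger ZNF143 groups mostly had no CTCF in the other lists and had ZNF143 at both times. In the 2 weaker groups ZNF143 was found less often. CTCF was called in another list at 45.8% of the weakest group and 30.7% of the next, so most of these sites had none. From weakest to strongest group, the median distance to a wild-type CTCF peak was 3023, 9438, 13050 and 14746 bp.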

How the data were processed

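Peak lists were analysed, 1 per group. Per the submitters' processing notes, the tools were cutadapt 2.10, Bowtie2 2.3.5.1, SAMtools 1.12, MACS2 2.2.7.1 and deepTools, and the build was GRCh37/hg19; settings, filters and pooling are not given in the sources used here. The authors deposited for each peak a fold enrichment (a ratio), −log10 p, −log10 q and a summit offset. The fold was read as having 1 added to count and background, an assumption under which whole summit counts matched −log10 p within 0.002 for 100% of peaks. The modal background divided by the shortest peak length gave background reads per kb. No count passed 2 reads per base of that length. Of the sites, 40 were at this limit and the 4 strongest just under it, so the order of the strongest sites by signal rests on counts that may be held down.

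Groups came from the labels. Peaks on chromosomes 1 to 22 and X were overlapped by at least 1 bp. Shares have exact Clopper-Pearson 95% intervals, and differences have Newcombe 95% intervals. Signal groups were cut at the quartiles of the sites. Named sites are, by ZNF143 signal outside chromosome 8, the 4 strongest, the 3 with the strongest partner and the 3 strongest of each pattern described. The sites and groups were chosen with earlier results of these data known. Alternatives were other overlap rules, −log10 q of at least 5, lists of equal length, distances from CTCF of 100 and 1000 bp and the stronger 50% of ZNF143 peaks. Gene positions, motifs and sequences were not used here, because no hg19 genome was at hand. Code in Python 3.11.15 (scipy 1.17.1, pandas 2.3.3, numpy 2.4.6, matplotlib 3.10.9) was tested on simulated data.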

Additional observations from a re-analysis of the deposited data

Results flagged for a closer look

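Sequences outside chromosomes 1 to 22 and X entered no comparison, yet held ZNF143 peaks with RAD21 and no CTCF. There were 6 on chromosome Y, of 179 wild-type ZNF143 peaks there, and 13 on the mitochondrial and unplaced sequences, of 262. These were noted because they lie in data that the comparisons did not use. On chromosomes 1 to 22 and X the share was 1.94%. Of the 179 peaks on chromosome Y, 130 overlapped RAD21 and 148 overlapped CTCF. HEC-1-B is a uterine line, and whether these reads came from a Y chromosome was not tested. No control library was analysed here that would give the background of these sequences.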

How the results depend on the processing

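Each of 17 results was recomputed under up to 8 alternatives. Of 136 values, 75 moved by less than their interval, 59 moved by more and 2 changed direction. For 3 results this interval was wide and did not measure counting error. It was 477 to 1072 for the number of sites, and the quartiles of the sites for the median ZNF143 rank and the median summit distance. These 3 results gave 22 of the 75 values. Values below are in the order knockout RAD21, knockout CTCF, 0 h CTCF, 24 h CTCF, 0 h ZNF143, 24 h ZNF143, leaving out any that moved less than their interval. The differences between classes, and a 50% overlap applied to the outcome lists alone, were added after the data were seen. With a reciprocal overlap of 50% throughout, 2302 sites met the rule. Of these, 2042 overlapped a CTCF peak by 1 bp or more and 260 were among the 715, so by construction most were sites that touch CTCF. The median ZNF143 signal rank of the 2302 sites was at percentile 43.9 of the list, against 76.4 for the 715. Knockout RAD21 was then found at 32.8%, 0 h CTCF at 20.4%, 24 h CTCF at 22.8%, 0 h ZNF143 at 50.6% and 24 h ZNF143 at 15.6%, and 24.1% of 0 h ZNF143 sites were kept at 24 h. Partners were kept at 82.9%, 32.9 points from RAD21-only peaks and -12.3 points from triple sites; knockout RAD21 differed by 29.6 points from ZNF143-only sites. At 24 h, ZNF143 turned to -18.1 points against ZNF143-only and -11.4 points against triple sites.

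With the 50% overlap in the outcome lists alone, the shares were 34.3%, 7.13%, 8.11%, 72.2% (0 h ZNF143) and 73.7%, with 43.3% of partners kept. The differences were -52.0 points (partners against triple sites) and, against ZNF143-only sites, 32.1 (knockout RAD21), 6.47 (knockout CTCF) and 18.3 (24 h ZNF143). With summits within 50 bp they were 56.2%, 11.9%, 10.6%, 81.4% (0 h ZNF143) and 77.9%, with differences of 50.7 points for knockout RAD21 against ZNF143-only and 55.9 for 24 h ZNF143 against triple sites. With lists of equal length they were 47.0%, 0.280%, 1.54% and 69.9% (0 h ZNF143), 99.0% of 0 h sites were kept and 47.2% of partners. The differences were then -6.29 points (partners against RAD21-only), -49.4 (against triple), 44.0 (knockout RAD21) and 0.225 (knockout CTCF against ZNF143-only). With −log10 q of at least 5, 0 h CTCF was 16.9% and partners differed by -5.57 points from RAD21-only peaks.

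Without sites within 100 bp of CTCF, 0 h CTCF was 11.4%. Without those within 1000 bp, knockout CTCF was 11.2%, 0 h CTCF 8.04%, 0 h ZNF143 90.7%, 24 h ZNF143 87.4% and 95.0% were kept; differences were 9.88 points (knockout CTCF against ZNF143-only), 17.2 and 64.6 (24 h ZNF143 against ZNF143-only and triple). In the stronger 50% of ZNF143 peaks, 452 sites met the rule, with 70.6%, 5.53%, 4.87%, 1.99%, 99.3% and 98.7%, and 99.3% kept; the differences from ZNF143-only sites were 3.46 (knockout CTCF) and 1.78 (24 h ZNF143). Where construction does not give it, the cause was not tested. No paired analysis was possible because each group held 1 library. The windows around gene starts and motifs were not run, for want of an hg19 genome. The median partner rested on 8 summit reads in wild type, and the part of library depth in the RAD21 calls was not tested.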
